A study of Glycine max with 8 samples.

Results

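A set of 194 probes marks the stored transcripts of dry soybean seed that were lowest relative to their dry level after 16 h of water uptake. They were chosen from 42748 soybean probes on an Agilent array in 1 colour. A member had to be well above background (the scanner software's own detection call) on both dry arrays, and its mean level at 16 h had to lie at least 3.5 log2 units below its mean level in dry seed. The 100 brightest probes of dry seed were left out. Of 19714 probes detected on both dry arrays, 212 met the fall and 18 of these were among the 100 brightest. A level is the log2 signal of a probe minus the 75th percentile of all soybean probes on the same array, so 0 is the level of that percentile and a difference of 1 is a 2-fold change. The fall between dry seed and 16 h chose the members, so its values are given as a description with no test. The members nearest the limit stood at -3.508, -3.517 and -3.518 log2, and the nearest probes beyond it at -3.496, -3.494 and -3.493.

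The groups were whole seeds of Glycine max, cultivar Suzumaru, dry (2 arrays), imbibed for 8 h (3 arrays) and imbibed for 16 h (3 arrays). After a soak in 1% hypochlorous acid and a wash, the seeds to be imbibed were kept on moist cotton at 25 °C without light. Seeds entered the 8 h group after taking up more than 0.06 g of water, and the 16 h group once germinated or past 0.33 g. Hours, water uptake and germination therefore cannot be told apart. Some 20 to 25 seeds of each stage were split into 3 portions and milled, so p-values reflect how far portions of 1 seed lot differ, a spread that may be technical. From each sample 200 ng of total RNA was amplified and labelled.

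A maturing seed fills its cells with messenger RNA that survives drying, and this stored RNA is what a dry seed holds when water returns. Well-known stored messages encode late embryogenesis abundant proteins, seed storage proteins, oil body proteins and heat shock proteins. In seeds studied so far, much of this maturation message decays during imbibition while new transcription begins. The probes carry only clone names and sequence accessions, and 0 of 42748 matched the 59048 genes of the RefSeq table used here, so no member has a gene name or a role, and the labelled tissue could not be set against marker genes. The 194 members have 194 different accessions, and none share a clone name, so each stands for a separate deposited sequence, though sequences of 1 gene could be among them.

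All 3 stages lay on both of the 2 slides. Between 19559 and 31193 probes per array were well above background, and the number was higher on every 16 h array than on any dry or 8 h array. The negative control spots, which measure background, had median levels of -4.88 and -5.90 log2 in dry seed on this scale, -6.07, -6.37 and -4.89 at 8 h, and -7.49, -7.58 and -7.03 at 16 h. A probe at background therefore reads lower relative to the 75th percentile at 16 h than in dry seed.

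The members were stored mostly at high levels. Their dry levels ran from -3.17 to 7.41 log2 with a median of 3.51, against a median of 0.26 over the 19714 dry-detected probes. Of the 194, 92 lay in the top class of 10 equal classes of dry-detected probes by dry level, 28 in the next, and 6 to 17 in each of the other 8. The rule favours this, since a dim probe has less room to fall before it reaches background. The members were scattered over the array, with rows from 5 to 530 of 532 and no adjacent pair on a row.

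The median member stood at 3.51 log2 in dry seed, 2.81 at 8 h and -0.36 at 16 h. The fall between dry seed and 16 h ran from -6.39 to -3.51 log2 with a median of -3.89, or 14.9-fold lower, where the median over all 28792 probes tested was -0.04. With members that were dim on all 16 h arrays set at their bound, the median fall was -3.86. Array by array, the median member level was 3.40 and 3.53 log2 in dry seed, 2.62, 2.51 and 3.09 at 8 h, and -0.93, 0.14 and -0.61 at 16 h. The dry arrays were highest, the 8 h arrays lay closely below them, and the 16 h arrays were far below both, with no overlap between stages. In whole seed, fewer cells of a type and less RNA per cell cannot be told apart.

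**Figure D1:**
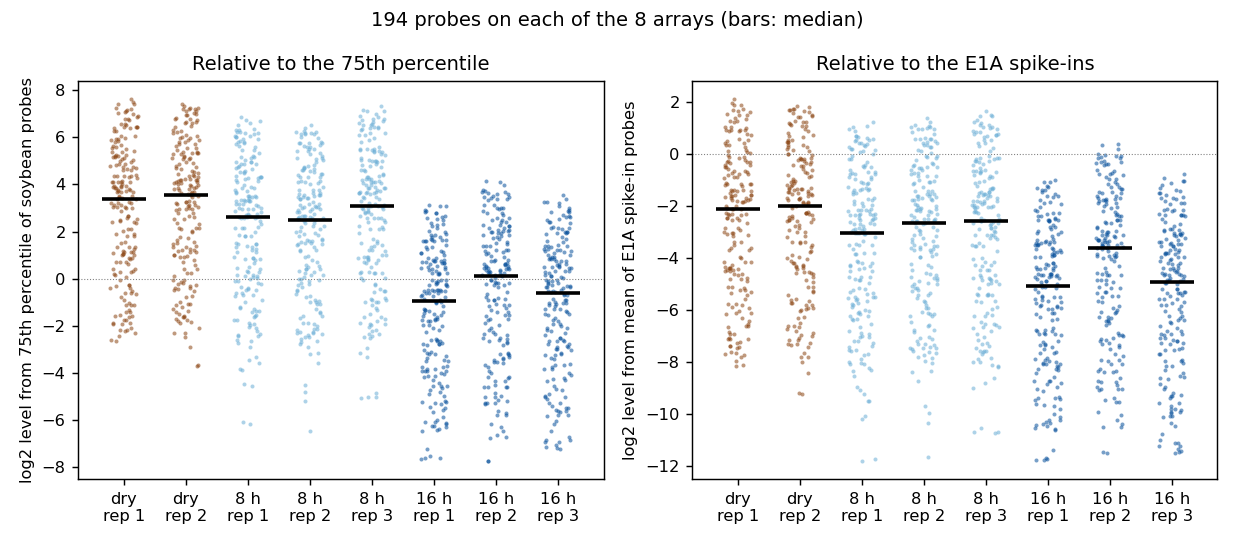
Level of each of the 194 members on each of the 8 arrays, in log2 from the array's 75th percentile (left) and in log2 from the mean of the E1A spike-in probes (right), with points for members and bars for medians. The 8 h medians lie between 2.51 and 3.09 on the left, near the dry medians of 3.40 and 3.53, and the 16 h medians lie between -0.93 and 0.14.

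At 8 h the members lay a little below their dry level, and 1 of the 194 passed the test. The mean at 8 h lay below the dry mean for all 194 members, where 57.1% of all probes tested did so. The change at 8 h had a median of -0.68 log2 (quartiles -0.88 and -0.56), or 1.60-fold lower, against -0.06 over all probes tested. For 147 members every 8 h array lay below every dry array, where 16.1% of tested probes did. The limma test called 1 member lower and 0 higher at an adjusted p under 0.05, where 0.0243% of all tested probes were called lower and 0.715% higher. At an unadjusted limma p under 0.05 it found 53 members lower, where 4.17% of tested probes were. The limma SE of the change at 8 h had a median of 0.35 log2 over the members (range 0.18 to 0.87), so a missed threshold does not show that a member had not changed. These counts use the same dry arrays as the rule, so the choice of members can itself favour a lower value at 8 h.

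At 8 h a median of 17.2% of the whole fall was seen (quartiles 14.1% and 21.5%, range 2.27% to 78.9%). Of the 194 members, 183 had at least 10% of their fall by 8 h, 61 at least 20%, 21 at least 25%, 9 at least 30% and 4 at least 50%. The share had medians of 18.2%, 18.8%, 17.0% and 16.1% from the dimmest to the brightest of 4 classes of members by dry level. Of the 21 members with at least 25%, 9 were dim on 1 or more arrays at 16 h and 5 on 1 or more at 8 h. Among the 165 members measured on all 8 arrays the share ran only from 8.16% to 31.2%, with a median of 17.0%.

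**Figure D2:**
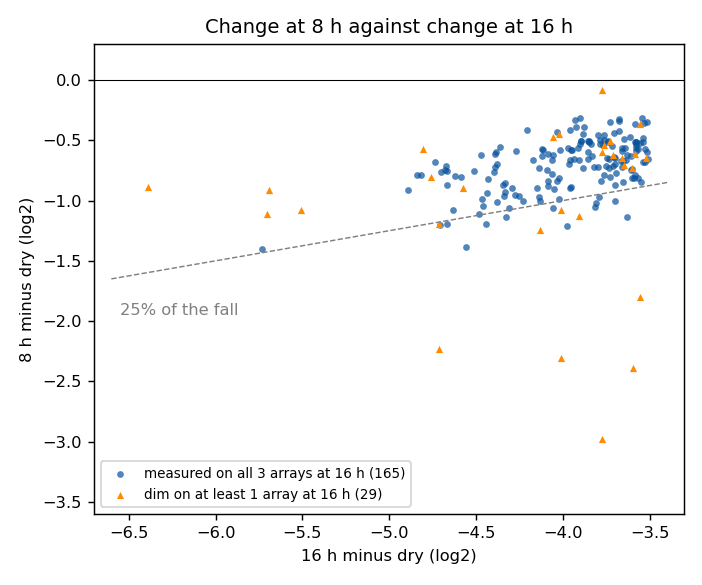
Change at 8 h (vertical) against change at 16 h (horizontal), both in log2 relative to dry seed, with circles for the 165 members that passed detection on each 16 h array and triangles for the 29 dim on at least 1 of them. Circles lie between -1.40 and -0.31 at 8 h, near or above the dashed line that marks 25% of the fall, and the points far below the line are triangles.

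The 8 h arrays did not show the same share. Relative to the dry mean, the median share was 21.3% on replicate 1, 24.1% on replicate 2 and 8.27% on replicate 3. The members lay below both dry arrays in 188, 193 and 153 cases on these arrays, where 40.1%, 46.4% and 39.9% of tested probes did. Replicate 3 was the highest 8 h array for 157 members, and over all 194 it lay a median of 0.58 log2 above the mean of the other 2, while over all tested probes its offset was -0.01. Without replicate 3 the median change at 8 h was -0.86 log2, the share 21.9%, and limma called 9 members lower (0.281% of tested probes, 81 in all), against 0 to 1 without any other single array. Replicate 3 also had the fewest detected probes of all arrays, 19559, and the highest negative control level of the 8 h arrays at -4.89 log2. The part of these in the result was not tested.

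**Figure D3:**
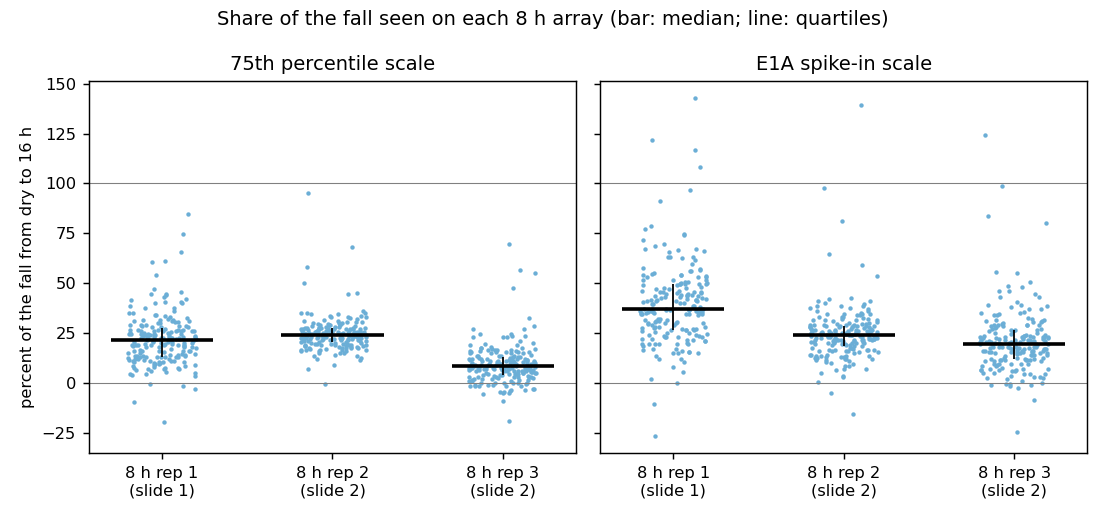
Share of each member's fall from dry seed to 16 h that was seen on each 8 h array, in percent, on the 75th percentile scale (left) and on the E1A spike-in scale (right), with points for members, bars for medians and vertical lines for quartiles. On the left the medians are 21.3%, 24.1% and 8.27%, and on the right 37.1%, 23.9% and 19.5%.

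Most of the fall came between 8 h and 16 h. Over the members the change had a median of -3.24 log2 and a range from -5.50 to -0.80, against 0.00 over all probes tested. Every 16 h array lay below every 8 h array for 193 members, where 35.8% of tested probes did. The limma test called the same number, 193, lower at 16 h than at 8 h and 0 higher, where 31.0% of tested probes were called lower and 29.2% higher. The 16 h arrays were also used by the rule, so this comparison does not stand apart from the choice of members. In both counts the exception was AW395760.1_506, which is described below. The dry, 8 h and 16 h arrays stood in that order without overlap for 146 members, where 11.2% of tested probes did. Between 16 h and dry seed no member overlapped (42.0% of tested probes were likewise lower without overlap) and limma called all 194 lower (33.8% of tested probes). The rule chose the members on that contrast, so nothing is read from these 2 counts.

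The 16 h arrays also differed among themselves. Replicate 2 was the highest of the 3 for 159 members, and over all 194 it lay a median of 0.76 log2 above the mean of the other 2, and replicate 1 was the lowest for 136. Over all tested probes the offset of replicate 2 was -0.03. The median SD at 16 h was 0.51 log2 over members and 0.19 over all tested probes (n = 3), and at 8 h it was 0.39 over members and 0.27 over tested probes (n = 3). Without 16 h replicate 2 the median fall from dry seed was -4.12 log2.

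Slide 1 held dry replicate 1, 8 h replicate 1 and 16 h replicates 1 and 2, and slide 2 held the others, 8 h replicate 3 among them. Readings by slide thus rest on 1 or 2 arrays per stage. Within slide 1, the change from dry seed had a median of -3.82 log2 at 16 h and -0.84 at 8 h, a share of 20.5%. Within slide 2 it was -4.08 at 16 h and -0.69 at 8 h, a share of 16.4%. At 8 h, 190 members were lower than in dry seed on slide 1 and 193 on slide 2, where 52.0% and 56.5% of tested probes were. The 2 slides also allow a reading on arrays that took no part in the choice. When the rule was applied to slide 1 alone it chose 357 probes, 162 of them members, and on slide 2 these lay at a median of -2.62 log2 at 16 h relative to dry seed. There 327 of the 357 were lower and 147 by at least 3.5 log2, where 64.7% of the 20157 probes detected in dry seed on slide 1 were lower and 1.32% by that much. When slide 2 chose, 366 probes passed, 179 of them members, and on slide 1 their median was -3.29 log2. There 363 of the 366 were lower and 156 by at least 3.5, where 62.0% of the 23362 probes detected in dry seed on slide 2 were lower and 0.912% by that much. Read this way, the share of the fall seen at 8 h was 14.6% on slide 2 and 20.6% on slide 1. At 8 h, 220 of the 357 were lower on slide 2, a smaller share than the 65.4% of probes detected in dry seed on slide 1. On slide 1, 323 of the 366 were lower, where 54.6% of those detected in dry seed on slide 2 were. Their median changes at 8 h were -0.435 and -0.70 log2, against -1.69 and -0.82 on the slide that chose. On the slide that chose them, the median changes at 16 h had been -4.11 and -3.99 log2, larger than on the other slide.

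A minority of members reached background by 16 h. Of the 194, 165 passed detection on all 3 arrays at 16 h, 4 on 2 arrays, 10 on 1 and 15 on none. Of all 19714 dry-detected probes, 22 were well above background on no 16 h array, so the members hold 15 of the 22, and this is partly set by the rule. All 29 members dim on at least 1 array at 16 h belonged to the dimmest of the 4 classes by dry level, which has 49 members. The 15 had dry levels between -3.17 and -0.45 log2, and read between -7.38 and -5.37 at 16 h. Their fall can be given only as a bound, from the dry mean to the higher of the probe's own level and the dimmest level that still passed detection on each array. The bounds ran from at least 4.31-fold to at least 28.4-fold lower, with a median of at least 9.52-fold, and 4 of the 15 exceeded 3.5 log2 even as bounds.

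What counts as background changes this number. None of the 15 failed the scanner's other detection call, a test of the spot against its local background, on all 3 arrays at 16 h. By the 95th percentile of the negative controls, 1 member was at or below background on all 3. At 8 h, 185 members passed detection on all 3 arrays, 5 on 2 and 4 on none. Of all tested probes, 67.0% passed on all 3 and 8.64% on none. Of all 19714 dry-detected probes, 10 were dim on all 3 arrays at 8 h, and 4 of these were members. The 4 dim at 8 h were also dim on all arrays at 16 h, while 6 of the 15 were still well above background on every 8 h array.

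The largest fall among members measured on all 8 arrays was that of GMFL01-30-B13-R_365. Its levels were 3.03 and 3.06 log2 in dry seed, 0.48, 1.50 and 2.95 at 8 h, and -4.03, -1.40 and -2.63 at 16 h. The stages did not overlap, but 8 h replicate 3 nearly met the dry arrays and the imbibed arrays spread widely. It changed by -5.73 log2 at 16 h relative to dry seed, a description, and 24.4% of this was seen at 8 h. It changed by -1.40 ± 0.86 (SE) at 8 h (limma adjusted p = 0.542), and between 8 h and 16 h it fell by 4.33 ± 0.77 (limma adjusted p = 0.00259). BE823736.1_624 was next, with 5.06 and 5.07 log2 in dry seed, 4.11, 3.76 and 4.60 at 8 h, and -0.53, 1.23 and -0.18 at 16 h. Here each stage formed a narrower band, and 18.6% of the fall was seen at 8 h (-0.91 ± 0.50, limma adjusted p = 0.501).

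BM732377.1_442 ranked first by the readings as measured, 2 of which were dim at 16 h. It stood at 0.41 and 0.26 log2 in dry seed, at -0.69, -0.97 and 0.01 at 8 h, and at -5.97, -5.26 and -6.93 at 16 h. Dry and 8 h seed lay close together and 16 h seed far below, and only 1 of the 3 readings at 16 h was well above background. With dim readings raised to the dimmest detected level of their array it was at least 46.3-fold lower than in dry seed, short of the 53.2-fold of GMFL01-30-B13-R_365. Over 23 alternatives the change of BM732377.1_442 at 16 h relative to dry seed ran from -7.19 to -3.14 log2. Between 8 h and 16 h it changed by -5.50 ± 0.43 log2 (limma adjusted p = 0.00033), and 13.8% of its fall was seen at 8 h. BF324958.1_377 was second by its change between 8 h and 16 h, with 0.08 and -0.12 log2 in dry seed, -0.24, -1.58 and -0.99 at 8 h, and -6.38, -5.00 and -5.76 at 16 h. The 16 h arrays were far below the rest and 1 of them passed detection. It changed by -4.77 ± 0.42 between 8 h and 16 h (limma adjusted p = 0.00035).

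**Figure D4:**
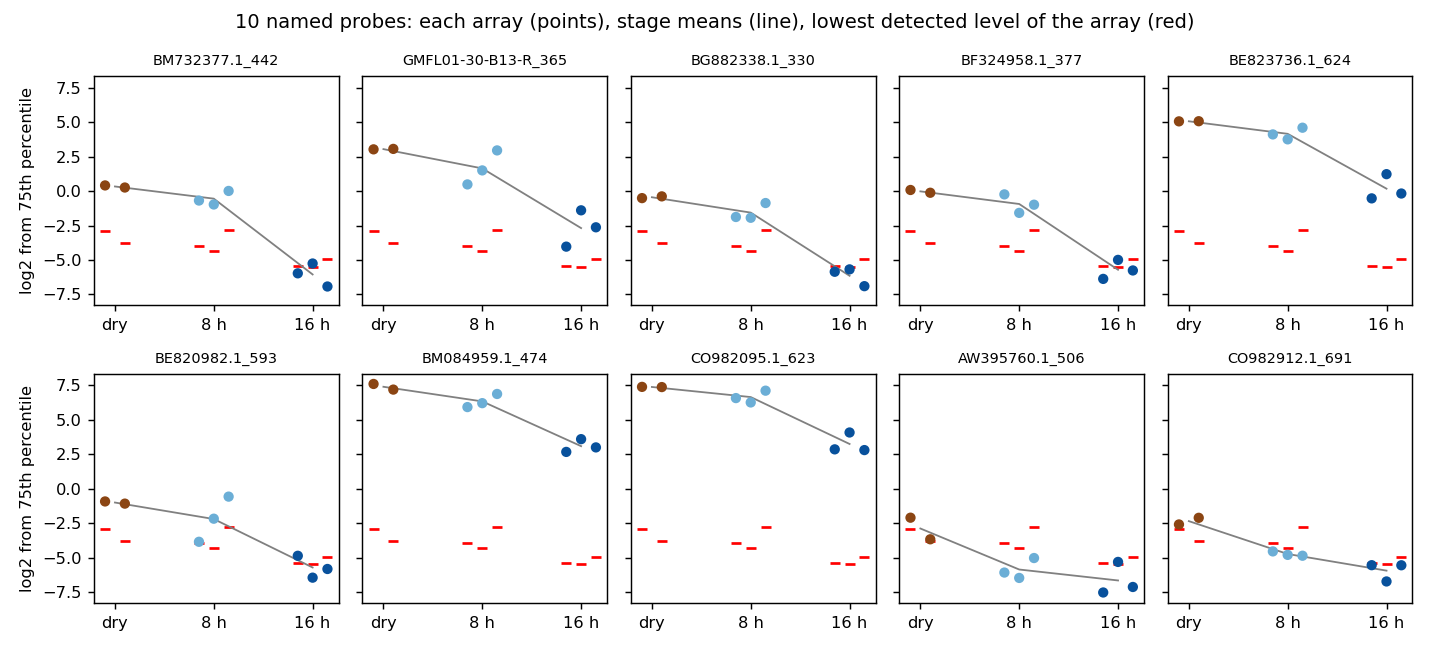
Levels of the 10 named members on each array, in log2 from the 75th percentile, with points for arrays, a line through the stage means and red marks for the dimmest level that passed detection on each array. In 8 of the 10 the line bends at 8 h with the steeper part after it, and in AW395760.1_506 and CO982912.1_691 the steeper part comes first, at readings that did not pass detection.

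The brightest members kept a high level at 16 h. BM084959.1_474 stood at 7.61 and 7.20 log2 in dry seed, 5.93, 6.22 and 6.88 at 8 h, and 2.68, 3.60 and 3.00 at 16 h. It was above the 75th percentile on every array, and its stages did not overlap. CO982095.1_623 stood at 7.40 and 7.38 log2 in dry seed, 6.58, 6.27 and 7.12 at 8 h, and 2.86, 4.09 and 2.81 at 16 h. Their changes at 16 h relative to dry seed were -4.31 and -4.14 log2, of which 24.6% and 17.7% were seen at 8 h. By their mean, 156 of the 194 members were above the 75th percentile in dry seed, 146 at 8 h and 80 at 16 h.

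The members with most of their fall at 8 h were those near background. CO982912.1_691, the 1 member called lower at 8 h, stood at -2.59 and -2.11 log2 in dry seed, -4.55, -4.80 and -4.86 at 8 h, and -5.55, -6.73 and -5.55 at 16 h. The 8 h arrays lay close together and well below both dry arrays, but no reading at 8 h or 16 h was well above background. As read, it changed by -2.39 ± 0.37 log2 at 8 h (limma adjusted p = 0.0406), and as a bound, from the dimmest detected level of each array, it was at least 2.55-fold lower. With a common floor, the highest of the 8 arrays' dimmest detected levels, its change at 8 h was -0.46 and was not called (limma adjusted p = 0.349), and over 23 alternatives its adjusted p ran from 0.0147 to 0.898. AW395760.1_506 stood at -2.10 and -3.67 log2 in dry seed, -6.08, -6.47 and -5.03 at 8 h, and -7.53, -5.31 and -7.13 at 16 h. It was lower at 8 h on all arrays, overlapped between 8 h and 16 h, and was likewise dim on all 6 imbibed arrays. Its reading changed by -2.98 ± 0.76 at 8 h (limma adjusted p = 0.191), a bound of at least 1.76-fold. It changed by -0.80 ± 0.68 between 8 h and 16 h (limma adjusted p = 0.339). Of the 4 members with at least 50% of their fall at 8 h, 3 were dim on every imbibed array, and all 4 had dry levels below -1.50.

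The largest bounds among the 15 members dim on all 3 arrays at 16 h belonged to BG882338.1_330 and BE820982.1_593. BG882338.1_330 stood at -0.51 and -0.38 log2 in dry seed, -1.88, -1.94 and -0.87 at 8 h, and -5.86, -5.68 and -6.90 at 16 h. It was detected on every dry and 8 h array and on none at 16 h, and was at least 28.4-fold lower there than in dry seed. That bound depends on the scale and on each array's own dimmest detected level. Over 23 alternatives its change at 16 h relative to dry seed ran from -6.52 to -2.36 log2. It changed by -4.59 ± 0.39 between 8 h and 16 h as read (limma adjusted p = 0.00033). BE820982.1_593 stood at -0.92 and -1.08 log2 in dry seed, -3.85, -2.17 and -0.57 at 8 h, and -4.87, -6.45 and -5.82 at 16 h. Its 8 h arrays spread from near the 16 h range to above both dry arrays, and its fall at 16 h was at least 17.1-fold, a bound that rests on each array's own dimmest detected level. With the common floor its change was -1.81 log2 relative to dry seed (limma adjusted p = 0.0565) and -0.96 relative to 8 h (limma adjusted p = 0.222), neither of them called.

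The fall was then set against the E1A spike-ins, adenoviral control transcripts that the array maker supplies for addition to the RNA sample. How much was added is not given in the sources used here. The spike-in mean was 13.24 ± 0.028 log2 signal in dry seed (SD, n = 2), 13.42 ± 0.050 at 8 h (n = 3) and 13.32 ± 0.18 at 16 h (n = 3). The 75th percentile of the soybean probes stood higher against it at 16 h, at -4.15, -3.76 and -4.30 log2, than on the dry arrays, at -5.51 and -5.53. On this scale every change at 16 h relative to dry seed is higher by 1.45 log2, and every change at 8 h relative to dry seed by 0.02. Since the rule asked for 3.5 log2, each member had to remain lower at 16 h on the spike-in scale by arithmetic.

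Relative to the spike-ins, the members were lower at 16 h than in dry seed by a median of -2.45 log2, or 5.45-fold, with a range from -4.94 to -2.06. The median over all tested probes was 1.41. All 194 were called lower (limma), where 3.74% of tested probes were, and 193 did not overlap between 16 h and dry seed, where 6.07% of tested probes were lower without overlap. The exception was AW395760.1_506. The rule used this contrast too, so nothing is read from these counts. A fall of 3 log2 or more was kept by 30 members and one of 3.5 or more by 5. By array, the median member level from the spike-in mean was -2.11 and -2.00 in dry seed, -3.03, -2.66 and -2.59 at 8 h, and -5.08, -3.62 and -4.91 at 16 h. All 16 h arrays were below all others, and replicate 2 stood well above the other 2. Without it the median fall was -2.83 and 25 members passed 3.5 log2, and without replicate 1 it was 8 members. On arrays outside the choice the fall against the spike-ins was smaller. The 357 probes chosen on slide 1 alone had a median of -1.39 log2 on slide 2. The 366 chosen on slide 2 alone had a median of -1.73 on slide 1.

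**Figure D5:**
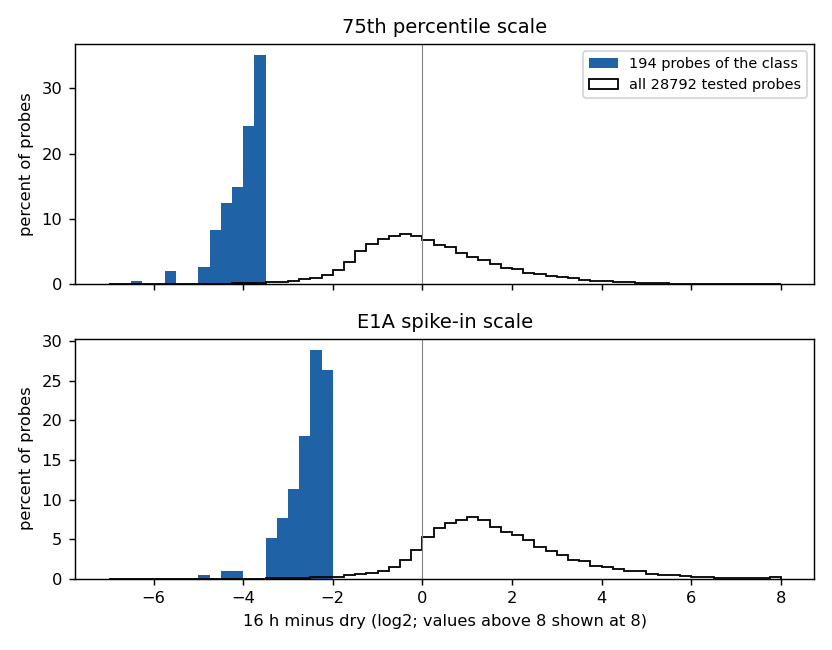
Change at 16 h relative to dry seed in log2, as percent of probes per bin of 0.25, for the 194 members (filled) and all 28792 tested probes (outline), on the 75th percentile scale (top) and the E1A spike-in scale (bottom). Both distributions move right by 1.45, which puts the members between -4.94 and -2.06 and the median of tested probes at 1.41.

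Between 8 h and 16 h the members changed by a median of -1.82 log2 on the spike-in scale, against 1.43 over all tested probes. The limma test called 189 members lower, where 2.42% of tested probes were, and 175 did not overlap, where 2.6% were lower without overlap. Of the 5 not called, 3 were dim on all imbibed arrays, and the direction turned in CO982912.1_691 (0.22) and AW395760.1_506 (0.63). The change at 8 h relative to dry seed was -0.65, with 165 members that did not overlap, where 13.6% of tested probes were lower without overlap. The limma test called 1 member lower at 8 h (0.00695% of tested probes), and 27 at an unadjusted p under 0.05 (1.23%). The share of the fall seen at 8 h rose to a median of 26.3%, with 37.1%, 23.9% and 19.5% on 8 h replicates 1, 2 and 3. The order of the 8 h arrays thus differed between the scales, and replicate 3 had the smallest share on both. Within slide 1 the share on the spike-in scale was 39.3%, and within slide 2 it was 19.7%. The slides thus lay further apart than on the 75th percentile scale, where the shares were 20.5% and 16.4%.

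Values at 8 h can be set beside those of 2 sets just outside the rule. The 18 probes among the 100 brightest that met the fall had a median change of -4.08 log2 at 16 h and -0.70 at 8 h, a share of 16.6% beside the 17.2% of the members. The 1110 dry-detected probes with a fall of 2 to 3.5 log2 that were measured on all 16 h arrays changed by a median of -0.45 at 8 h, a share of 18.0%. On the spike-in scale their share was 41.6%, against 26.3% for the members and 24.6% for the 18, since the constant shift takes away more of a smaller fall. These differences were not tested, because all 3 sets were chosen by the same contrast.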

How the data were processed

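RNA of 8 seed samples was read on 1 array each. Per the file headers, the deposited scanner files hold spot intensity on a linear scale from Agilent Feature Extraction 10.7.3.1, and the processed signal used here is an intensity after background subtraction within the array. The series' deposited table holds log2 values, which match the levels used here to within a constant per array of -0.00265 to -0.00084, with column medians from -3.10 to -2.52. It served as an alternative. Detection calls were those of the authors' scanner files. Groups and replicate numbers came from the sample titles. The third dry portion was not analysed here.

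Levels were log2 of processed signal, centred per array on the 75th percentile of its 42748 soybean probes. Control spots (1417) were not among the probes tested, and of these only the E1A spike-ins and negative controls were used, as described. From 0 to 4 outlier spots per array were treated as missing, none of them a member's. No member spot was saturated. The 28792 probes that passed detection throughout 1 or more stages were tested with limma 3.58.1 in R 4.3.3, in 1 fit to all 8 arrays (2-sided, Benjamini-Hochberg adjusted p under 0.05 over all tested probes). The spike-in scale subtracts the mean of 7 of the 10 E1A probes (32 spots each), leaving out probes that on any array were dim in most spots or saturated in any spot. Tables were made with pandas 2.3.3 and numpy 2.4.6 in Python 3.11.15. Precision is limited by how few arrays there are. The fit was tested on simulated data.

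Members and lists were chosen with earlier results of these data known. Probe identifiers named are the first 2 of each of 5 lists, the largest fall by 16 h among members measured on all arrays, the largest fall by 8 h and the largest fall between 8 h and 16 h without overlap, the brightest in dry seed, and the largest bound. Lists of genes by product name were not run, since no probe had one. The files carry no mean signal, so normexp background (offset 50) used median signal and median background.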

Additional observations from a re-analysis of the deposited data

How the results depend on the processing

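The median change at 8 h and at 16 h relative to 8 h stayed negative under all 25 alternatives to each, though both share arrays with the rule. It stayed negative at 16 h relative to dry seed too, but the rule set that direction, so nothing is read from it. The median at 8 h moved by less than the spread of the 8 h arrays in all 25. Some of these, such as leaving out a 16 h array, cannot move it. The number of members called lower at 8 h (1, limma) was 0 with either form of normexp background, the percentile over detected probes, no filter on dim probes, both stricter filters, slide as a block, slide 2 alone and only the 2 stages compared, 3 with quantile normalization and with median centring (12 and 15 of all 28792 tested probes, against 7), 7 on slide 1 alone (336 of all), and 0 to 9 with single arrays left out (1 to 81 of all). Slide 2 alone, with 1 dry and 1 16 h array, also gave no calls at 16 h, among members or among all tested probes (the cause was not tested). Its medians at 16 h were -3.39 log2 against 8 h and -4.08 against dry seed. With 1 imbibed array left out, limma called 193 members lower against 8 h each time (26.6% to 30.1% of tested probes). Against dry seed it called 194 each time (30.2% to 34.6%). With any 1 array left out, the medians ran from -3.49 to -3.03 against 8 h, from -4.12 to -3.73 against dry seed and from -0.86 to -0.54 for 8 h against dry seed. A common floor called 178 members lower against 8 h (28.8% of tested probes) and 188 against dry seed (31.9%). There AW395760.1_506 (-0.35, limma adjusted p = 0.184) and BE820982.1_593 were no longer called against dry seed. Either form of normexp background gave medians of -2.35 (16 h minus 8 h) and -3.27 (16 h minus dry), and spike-in centring -1.82 and -2.45. The share at 8 h was 26.3% with spike-in centring and 25.5% with either form of normexp background. It was 13.7% to 21.9% with single arrays left out. Whether the replicate numbers pair the samples cannot be settled here. Deviations of same-numbered samples correlated at -0.05 to 0.19, and the largest of these were between samples on the same slide. With the replicate number as a block limma called 0 members lower at 8 h. At an unadjusted limma p under 0.05 it found 66, where 1256 of all 28792 tested probes were lower. At 16 h it called 193 lower against 8 h (30.3% of tested probes) and 194 against dry seed (32.5%). The count at background at 16 h (15) was 29 by 1 array, 0 by the test against local background and 1 by the negative controls. The number of probes that meet the rule (194) was 56 with either normexp background, 128 with quantile normalization (116 of the members), 339 with median centring, 85 with the percentile over detected probes (85 members), 5 with spike-in centring, 375 and 79 with thresholds of 3 and 4 log2, 357 on slide 1 alone, 366 on slide 2 alone, 314 without dry replicate 1 and 357 without dry replicate 2, and 152 to 357 over all arrays left out (151 to 194 of the members). Relative to the spike-ins the 16 h minus dry median ran from -2.83 to -2.24 with single arrays left out. The members at -3.5 or below then numbered from 5 to 25. Of the named members, AW395760.1_506 turned between 8 h and 16 h with quantile normalization (0.37) and spike-in centring (0.63), and CO982912.1_691 with spike-in centring (0.22). The causes were not tested beyond those stated. Signal over background limits all readings of the 15 members dim at 16 h.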

Other observations

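The share of probes that were members varied between blocks of probes whose accessions or clone names begin alike. This pattern was looked for after the values were seen and was not tested. Of all 19714 dry-detected probes, 0.984% were members. The large accession blocks CO98, CX70 and BW65 lay near this, at 1.17%, 0.874% and 0.831%. Blocks BW66, BW67 and BW68 lay below it, at 0.60%, 0.50% and 0.28%. The member GMFL01-30-B13-R_365 belongs to block BW66, so the BW blocks and the GMFL clone names below overlap. Clone names that begin with GMFL made up 36 of the 194 members, or 18.6%, against 30.1% of the 19714 dry-detected probes. Accessions that begin with CK76 gave 9 members out of 74 dry-detected probes of that block, or 12.2%, and those that begin with AW50 gave 6 of 54, or 11.1%. Those that begin with BE82 gave 13 members, 6.70% of all members against 2.60% of dry-detected probes. Neighbouring accessions often come from 1 deposited clone library, and the tissue of these libraries is not given in the sources used here.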
